A study of Homo sapiens with 112 samples.

Results

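Condensin is a ring-shaped protein complex that compacts chromosomes before cell division. It occurs in vertebrate cells as condensin I and condensin II, which share the ATPases SMC2 and SMC4. Each form adds its own kleisin, the subunit that closes the ring (NCAPH in condensin I, NCAPH2 in condensin II), and its own pair of HEAT-repeat subunits (NCAPD2 and NCAPG in condensin I, NCAPD3 and NCAPG2 in condensin II). Condensin II is present in the nucleus throughout the cell cycle, and condensin I reaches the chromosomes after the nuclear envelope breaks down. Their subunits are commonly read as genes of dividing cells.

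The 8 condensin subunits were followed in RNA-seq libraries of VCaP and LAPC4, established, androgen-responsive cell lines from human prostate cancer. The subunits were found by gene symbol among the 58684 rows of the table of gene counts, and all 8 had reads above the filter in both cell lines. NCAPD3 was chosen by its measured values, namely its rise with the synthetic androgen R1881 in VCaP cells, so its VCaP values against DMSO or R1881 libraries are given as a description with no test. The comparison set NCAPD3 against the other 7 subunits.

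Before treatment all cells spent 2 days with 10% charcoal-stripped serum, which is low in hormone. They then received the vehicle DMSO, R1881 (1 nM), or R1881 (1 nM) together with the androgen receptor antagonist darolutamide at a low dose of 500 nM or a high dose of 2 µM, and were harvested after 8 or 22 h. For VCaP there were 10 libraries with DMSO, 10 with R1881, 4 with the low dose and 5 with the high dose at 8 h, and 8, 9, 4 and 5 in this order at 22 h. For LAPC4 the 8 h groups had 10, 10, 5 and 5 libraries and the 22 h groups had 7, 10, 5 and 5, which makes 112 libraries in 16 groups. The labels do not say which libraries came from separate cultures. The p-values therefore measure the spread between these libraries, part of which may be technical.

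Between 12870607 and 25125789 reads were counted on genes per VCaP library and between 12188455 and 25201678 per LAPC4 library. ERG, which is fused to the androgen-driven TMPRSS2 promoter in VCaP cells, had 1578 to 21554 reads in the VCaP and 0 to 1 in the LAPC4 libraries. The epithelial marker EPCAM was at 235 CPM (the count scaled to a common library size) or more in all libraries, the blood markers PTPRC and CD14, the endothelial marker PECAM1 and the fibroblast marker COL3A1 were each at 0.724 CPM or less, and the fibroblast marker COL1A1 was at 1.75 CPM or less. FKBP5, a chaperone gene induced by androgen, rose with R1881 at 22 h by 5.49 on the log2 scale in VCaP cells and by 1.36 in LAPC4 cells, and KLK3, which codes for prostate-specific antigen, rose by 3.44 and 1.65.

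NCAPD3 lies on the minus strand of chromosome 11 (chr11:134150113-134225504, GRCh38, GENCODE 44). The other members lie on other chromosomes, namely NCAPD2 at chr12:6493356-6531955, NCAPG at chr4:17810979-17844865, NCAPH at chr2:96335766-96377091, NCAPG2 at chr7:158631169-158704804, NCAPH2 at chr22:50508224-50524780, SMC2 at chr9:104094260-104141419 and SMC4 at chr3:160399274-160434954. RefSeq gives NCAPD3 2 transcription starts, 1494 bases apart. The windows from 250 bases before to 50 bases after each start are shown with that of NCAPD2, its counterpart in condensin I, because the members behaved differently although they belong to related complexes. The letters come from the RefSeq promoter table of build GRCh38.p14 and are written 5′ to 3′ on the strand of the gene. Capitals mark matches, on either strand, to the androgen receptor half-site AGAACA, the cell cycle genes homology region (CHR) TTTGAA, the CCAAT box CCAAT or the E2F site TTTCGCGC or TTTGGCGC.
NCAPD3 upstream start, chr11:134225412-134225711, minus strand: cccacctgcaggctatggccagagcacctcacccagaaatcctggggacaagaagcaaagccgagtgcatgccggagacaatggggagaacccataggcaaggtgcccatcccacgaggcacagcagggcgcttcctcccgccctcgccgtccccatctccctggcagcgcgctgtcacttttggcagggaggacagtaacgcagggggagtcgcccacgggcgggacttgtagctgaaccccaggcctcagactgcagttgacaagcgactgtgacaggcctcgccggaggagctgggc
NCAPD3 downstream start, chr11:134223918-134224217, minus strand: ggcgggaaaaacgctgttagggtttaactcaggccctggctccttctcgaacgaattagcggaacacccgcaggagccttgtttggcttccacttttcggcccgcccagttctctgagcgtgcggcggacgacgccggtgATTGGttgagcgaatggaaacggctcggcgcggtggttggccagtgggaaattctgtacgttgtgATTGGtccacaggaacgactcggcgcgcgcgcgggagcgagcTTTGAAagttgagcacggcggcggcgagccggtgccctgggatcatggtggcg
NCAPD2, chr12:6493852-6494151, plus strand: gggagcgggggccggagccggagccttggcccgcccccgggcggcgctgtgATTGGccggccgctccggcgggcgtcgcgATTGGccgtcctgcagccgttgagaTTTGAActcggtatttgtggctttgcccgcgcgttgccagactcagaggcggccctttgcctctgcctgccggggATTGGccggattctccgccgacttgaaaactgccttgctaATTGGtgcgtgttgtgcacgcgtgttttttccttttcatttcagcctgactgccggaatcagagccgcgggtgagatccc
The upstream window of NCAPD3 held none of these motifs, and its downstream window held a CHR match that begins at position -3 from the start and CCAAT matches at -110 and -45. The NCAPD2 window held a CHR match at -145 and 4 CCAAT matches.

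Across the 10 windows of the 7 subunits with an entry (none was given for NCAPH2), the CHR letters were found for 6 subunits, in 6 windows. They were absent from the window of NCAPH. Of 35116 promoter windows of this length, 15.2% held the CHR letters. CCAAT was found for 3 subunits against 34.6% of all windows. The androgen receptor half-site was found in 1 member window, the second of SMC2, against 14.8%, and the E2F letters in 0 against 1.15%. The GC box GGGCGG, left in lower case, was found in 6 member windows, against 45% of all windows. These counts describe letters in short windows and say nothing of binding, and subunits with more than 1 window had more letters in which a match could fall.

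In VCaP cells NCAPD3 was far higher with androgen than with vehicle. With DMSO, the 10 libraries at 8 h lay between 89.5 and 101.8 CPM (median 96.2) and the 8 libraries at 22 h between 97.5 and 109.4 CPM (median 104.6). With R1881, the 10 libraries at 8 h lay between 3482 and 3781 CPM (median 3620) and the 9 libraries at 22 h between 4983 and 5682 CPM (median 5528). No R1881 library came near a DMSO library. The R1881 mean was 37.8-fold the DMSO mean at 8 h and 51.7-fold at 22 h, which is a log2 fold change of 5.24 ± 0.0366 (SE) and 5.69 ± 0.0414. By size of the fold change NCAPD3 ranked 42 of 19266 genes tested at 8 h and 23 at 22 h. NCAPD3 reads made up as much as 0.528% of all reads of a VCaP library, and between 0.00508% and 0.00716% of a LAPC4 library. As these are bulk libraries, a change in the number of cells of a kind and a change in RNA per cell cannot be told apart.

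With darolutamide added to R1881, NCAPD3 was lower than with R1881 alone, the more so at the higher dose and the later time, and stayed above vehicle in every VCaP library. At 8 h, the 4 low-dose libraries read 2123, 2147, 2158 and 2229 CPM and the 5 high-dose libraries 728, 729, 747, 776 and 780 CPM. At 22 h, the low-dose libraries read 1321, 1338, 1436 and 1635 CPM and the high-dose libraries 385, 389, 398, 407 and 465 CPM. The groups did not overlap at either time, and 1 high-dose library at 22 h, at 465 CPM, stood apart from the other 4. The log2 fold change of the low dose against R1881 was -0.74 at 8 h and -1.91 at 22 h, and that of the high dose was -2.27 and -3.72. Against DMSO, high-dose cells were still 7.85-fold higher at 8 h and 3.92-fold higher at 22 h.

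**Figure D1:**
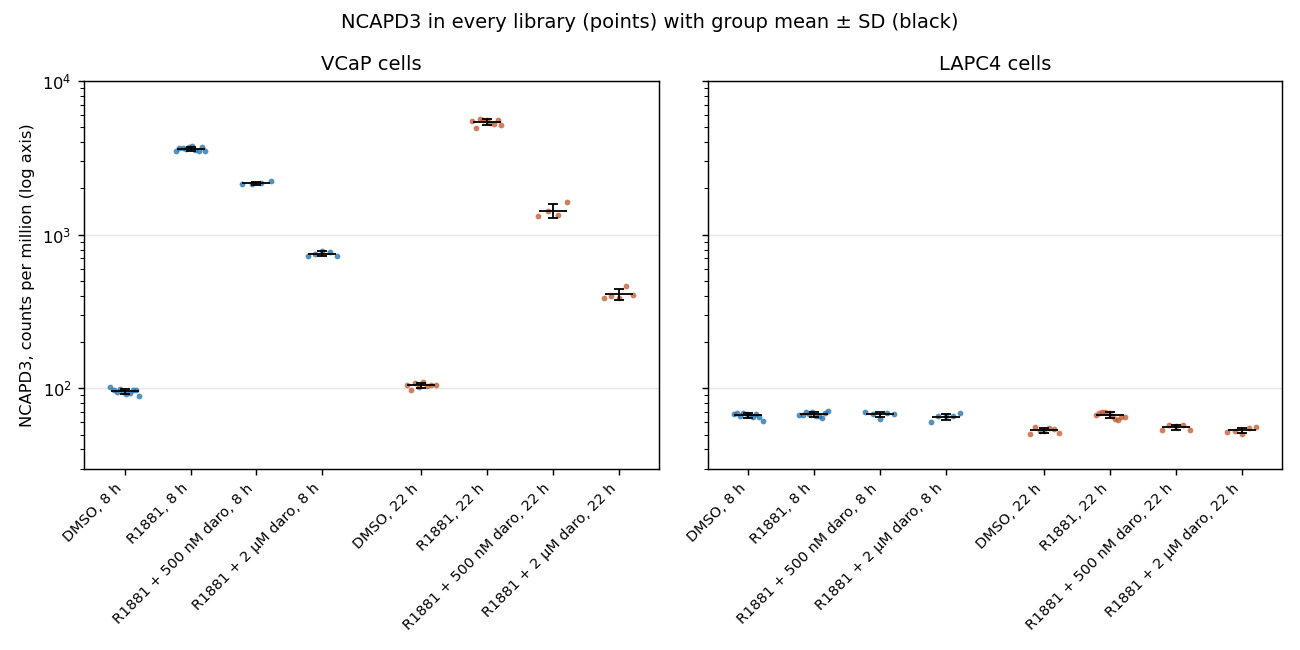
NCAPD3 in CPM (log axis) for each library (points; blue 8 h, orange 22 h) with the group mean ± SD in black, VCaP on the left and LAPC4 on the right. The VCaP groups fall from R1881 over the low and high dose of darolutamide to DMSO at both times, and the LAPC4 groups all lie between 50.4 and 71.6 CPM.

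The difference between the doses compares only libraries that did not choose the gene, and was tested. The spread used by edgeR comes from all 8 groups, and the reversal is scaled by the R1881 and DMSO means. Neither is thus free of the libraries that chose the gene. NCAPD3 was lower with 2 µM than with 500 nM darolutamide by 1.53 ± 0.0456 on the log2 scale at 8 h (log2 fold change -1.53, edgeR quasi-likelihood test, adjusted p = 1.1e-33) and by 1.81 ± 0.046 at 22 h (log2 fold change -1.81, adjusted p = 3.85e-37). Beside it, 10.0% of all genes tested were lower with the high dose at 8 h and 9.75% at 22 h. Expressed as the share of the distance from the R1881 mean back to the DMSO mean on the log2 scale, the reversal was 14.1% ± 0.575 (SD, n = 4) with the low and 43.2% ± 0.913 (n = 5) with the high dose at 8 h (two-sided exact permutation test p = 0.0159, the smallest that 4 against 5 libraries allow). It was 33.7% ± 2.48 and 65.4% ± 1.93 at 22 h (exact permutation p = 0.0159, and 0.0318 after adjustment over the 4 comparisons of doses). On the linear CPM scale the same libraries gave 41.2% and 81.4% at 8 h and 74.9% and 94.2% at 22 h.

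From the highest to the lowest VCaP mean, NCAPD3 ran from R1881 at 22 h (5395 ± 233 CPM) and R1881 at 8 h (3615 ± 100) over the low dose at 8 h (2164 ± 45.5), the low dose at 22 h (1432 ± 144), the high dose at 8 h (752 ± 25.0) and the high dose at 22 h (409 ± 32.3) to DMSO at 22 h (104.4 ± 3.54) and at 8 h (95.7 ± 3.61). Neighbours in this order did not overlap in any library, except for the DMSO groups. DMSO libraries at 22 h were higher than those at 8 h by a log2 fold change of 0.125 ± 0.0336, again as a description.

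In LAPC4 cells NCAPD3 was nearly flat. At 8 h, the DMSO libraries lay between 61.4 and 69.2 CPM (median 67.6) and the R1881 libraries between 64.1 and 71.6 (median 67.4). The low-dose libraries read 62.9, 67.7, 68.1, 68.9 and 70.3 CPM and the high-dose libraries 60.6, 65.8, 66.0, 66.1 and 68.7 CPM. All 4 groups overlapped. At 22 h the R1881 libraries, at 62.3 to 70.5 CPM (median 66.2), lay above all 7 DMSO libraries, at 50.7 to 56.2 (median 52.7). The low-dose libraries read 53.4, 53.8, 56.5, 57.3 and 57.6 CPM and the high-dose libraries 50.4, 52.0, 52.8, 55.2 and 55.7 CPM, all below every R1881 library. Both dose groups overlapped with DMSO.

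Tested at 22 h, LAPC4 NCAPD3 rose with R1881 by a log2 fold change of 0.33 ± 0.0299 (edgeR adjusted p = 3.45e-13), which is 1.25-fold. It fell with the high dose against R1881 (log2 fold change -0.325 ± 0.0334, adjusted p = 2.35e-11) and with the low dose (-0.26 ± 0.0334, adjusted p = 3.49e-08). The R1881 effect at 22 h exceeded that at 8 h by 0.30 ± 0.04 on the log2 scale (adjusted p = 2.69e-07). The reversal at 22 h was 79.1% ± 15.8 (SD, n = 5) with the low and 99.6% ± 18.5 (n = 5) with the high dose on the log2 scale, and the test of the doses did not pass (two-sided exact permutation test p = 0.0952, adjusted 0.127, and 0.00794 is the smallest possible). At 8 h, where R1881 against DMSO was not called, it was 24.7% ± 251 (n = 5) and 217% ± 274 (n = 5, exact permutation p = 0.302). Between high dose and DMSO at 22 h the log2 difference was 0.0016, with a 95% interval from -0.069 to 0.073. In the order of means, the 4 groups at 8 h and R1881 at 22 h (65.4 to 67.9 CPM) overlapped with each other and lay above the other 3 groups at 22 h (53.2 to 55.7 CPM), which also overlapped with each other.

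Set side by side, the R1881 effect on NCAPD3 in VCaP cells exceeded that in LAPC4 cells by 5.13 at 8 h and 5.31 at 22 h on the log2 scale, again as a description. It ranked 8 and 4 of the 16578 genes tested in both lines. With both lines on common scaling factors, the vehicle level of NCAPD3 was already higher in VCaP cells, at 110.0 ± 5.49 CPM against 60.9 ± 3.36 at 8 h and 120.2 ± 4.48 against 49.7 ± 1.82 at 22 h. No DMSO library of one line overlapped with those of the other.

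None of the other 7 subunits came near the fold change of NCAPD3 with androgen. With R1881 in VCaP cells at 8 h, NCAPG, NCAPG2 and SMC4 rose (3 of 7, where 32.8% of all genes rose) and NCAPD2 fell (1 of 7, where 34.1% fell), and the log2 fold changes of all 7 lay between -0.31 and 0.29. NCAPG, the HEAT-repeat subunit of condensin I that binds DNA together with the kleisin, lay between 29.3 and 37.7 CPM in the DMSO and between 34.8 and 45.4 CPM in the R1881 libraries (log2 fold change 0.29 ± 0.0479, adjusted p = 4.17e-07). NCAPD2 lay between 64.3 and 78.2 CPM with DMSO and between 53.1 and 62.0 with R1881, without overlap (-0.31 ± 0.0298, adjusted p = 1.09e-13). NCAPG2 rose by 0.25 ± 0.0335 and SMC4 by 0.24 ± 0.04. NCAPH, NCAPH2 and SMC2 had log2 fold changes of -0.039, 0.094 and -0.034 and did not pass the test.

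After 22 h of R1881, 0 of the other 7 subunits in VCaP cells rose, where 37.4% of all genes rose, and 3 of 7 fell, a share near the 40.0% of all genes that fell. NCAPG fell by 0.40 ± 0.0502 on the log2 scale (log2 fold change -0.40, adjusted p = 3.11e-10), from 63.2 to 79.8 CPM with DMSO to 47.0 to 60.9 with R1881. NCAPD2 changed by -0.31 ± 0.0315 (adjusted p = 7.56e-13) and SMC2 by -0.17 ± 0.0497 (adjusted p = 0.00175). The kleisins NCAPH and NCAPH2, and NCAPG2 and SMC4, had values of 0.024, 0.18, 0.069 and -0.018 and did not pass the test. With upper-quartile scaling, which shifts the median log2 fold change of all genes in this comparison by -0.115, NCAPH turned to -0.092 and 5 subunits were called.

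The direction of the R1881 effect on NCAPG thus depended on the time. The effect at 22 h minus that at 8 h was -0.69 ± 0.0694 for NCAPG (adjusted p = 8.23e-13), -0.26 ± 0.0588 for SMC4 (adjusted p = 0.000119) and -0.18 ± 0.049 for NCAPG2 (adjusted p = 0.00121). The other 4 subunits did not pass this test, in which 60.4% of all genes did. The call of SMC4 was lost with control replicates 1 to 5 alone (-0.16, adjusted p = 0.0856). NCAPD3 differed by 0.45 in the other direction.

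Darolutamide had little effect on the other subunits at 8 h. With the high dose against R1881, NCAPD2 (0.11 ± 0.0364, adjusted p = 0.00919) and SMC2 (0.15 ± 0.0557, adjusted p = 0.0225) were called higher, beside 25.9% of all genes. SMC4 was called lower (-0.22 ± 0.0493, adjusted p = 0.000145), beside 26.2%. With the low dose, NCAPD2 (0.13 ± 0.0395) and SMC2 (0.21 ± 0.0602) were called higher, beside 14.9% of all genes. These are small effects, and the high- and low-dose libraries overlapped with R1881 for 7 and 6 of the 7 subunits, a count not made for all genes. Some of the calls rested on 1 library: without high-dose replicate 5 only SMC4 stayed called in the high-dose comparison, and without low-dose replicate 3 only SMC2 in the low-dose comparison.

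At 22 h all other subunits rose with darolutamide in VCaP cells. Against R1881, 7 of 7 rose with the high dose, where 36.1% of all genes rose, and 7 of 7 with the low dose, where 26.7% did. NCAPG lay between 47.0 and 60.9 CPM with R1881, at 102.0, 104.5, 106.2 and 107.5 CPM with the low dose and at 107.6, 114.9, 116.3, 117.5 and 122.9 CPM with the high dose. SMC2, the partner of SMC4 in the ATPase pair, lay between 50.3 and 63.9 CPM with R1881, at 110.5, 113.6, 119.8 and 121.7 with the low dose and at 113.1, 115.4, 122.3, 127.0 and 132.1 with the high dose. For each of the 7 subunits, every darolutamide library at 22 h lay above every R1881 library. How many of all genes separate in this way was not counted. NCAPD3 went the opposite way in the same libraries.

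In the high-dose comparison with R1881 at 22 h the log2 fold changes were 1.11 ± 0.0554 for NCAPG (adjusted p = 3.84e-25), 1.09 ± 0.0545 for SMC2, 0.93 ± 0.0454 for NCAPH, 0.87 ± 0.0394 for NCAPG2, 0.77 ± 0.13 for NCAPH2, 0.72 ± 0.0353 for NCAPD2 and 0.51 ± 0.0486 for SMC4 (adjusted p = 1.01e-13). NCAPH2, the kleisin of condensin II and the least abundant member, had the largest error and lay between 5.42 and 9.54 CPM with R1881 and between 10.1 and 14.9 CPM with the high dose. The low dose gave log2 fold changes from 0.56 for SMC4 to 1.03 for SMC2.

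The darolutamide libraries at 22 h also lay above vehicle. With high dose and R1881 against DMSO, 7 of 7 rose, with log2 fold changes from 0.41 ± 0.0362 for NCAPD2 to 0.95 ± 0.134 for NCAPH2, where 30.5% of all genes rose. No library of any subunit overlapped, which was again not counted over all genes. NCAPH, for example, lay between 32.8 and 37.4 CPM with DMSO and between 59.8 and 70.2 CPM with the high dose. The level of these 7 subunits with antagonist was therefore above both the vehicle and the androgen level, whereas NCAPD3 stayed between them. At 8 h, the same comparison called NCAPG (0.20 ± 0.0582) and NCAPG2 (0.20 ± 0.0406) higher, beside 15.4% of all genes, and NCAPD2 lower (-0.20 ± 0.0366), beside 12.0%. The call of NCAPG was lost with the replicate number as a block (0.18, adjusted p = 0.0808) and with control replicates 1 to 5 alone (0.17, adjusted p = 0.0554).

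**Figure D2:**
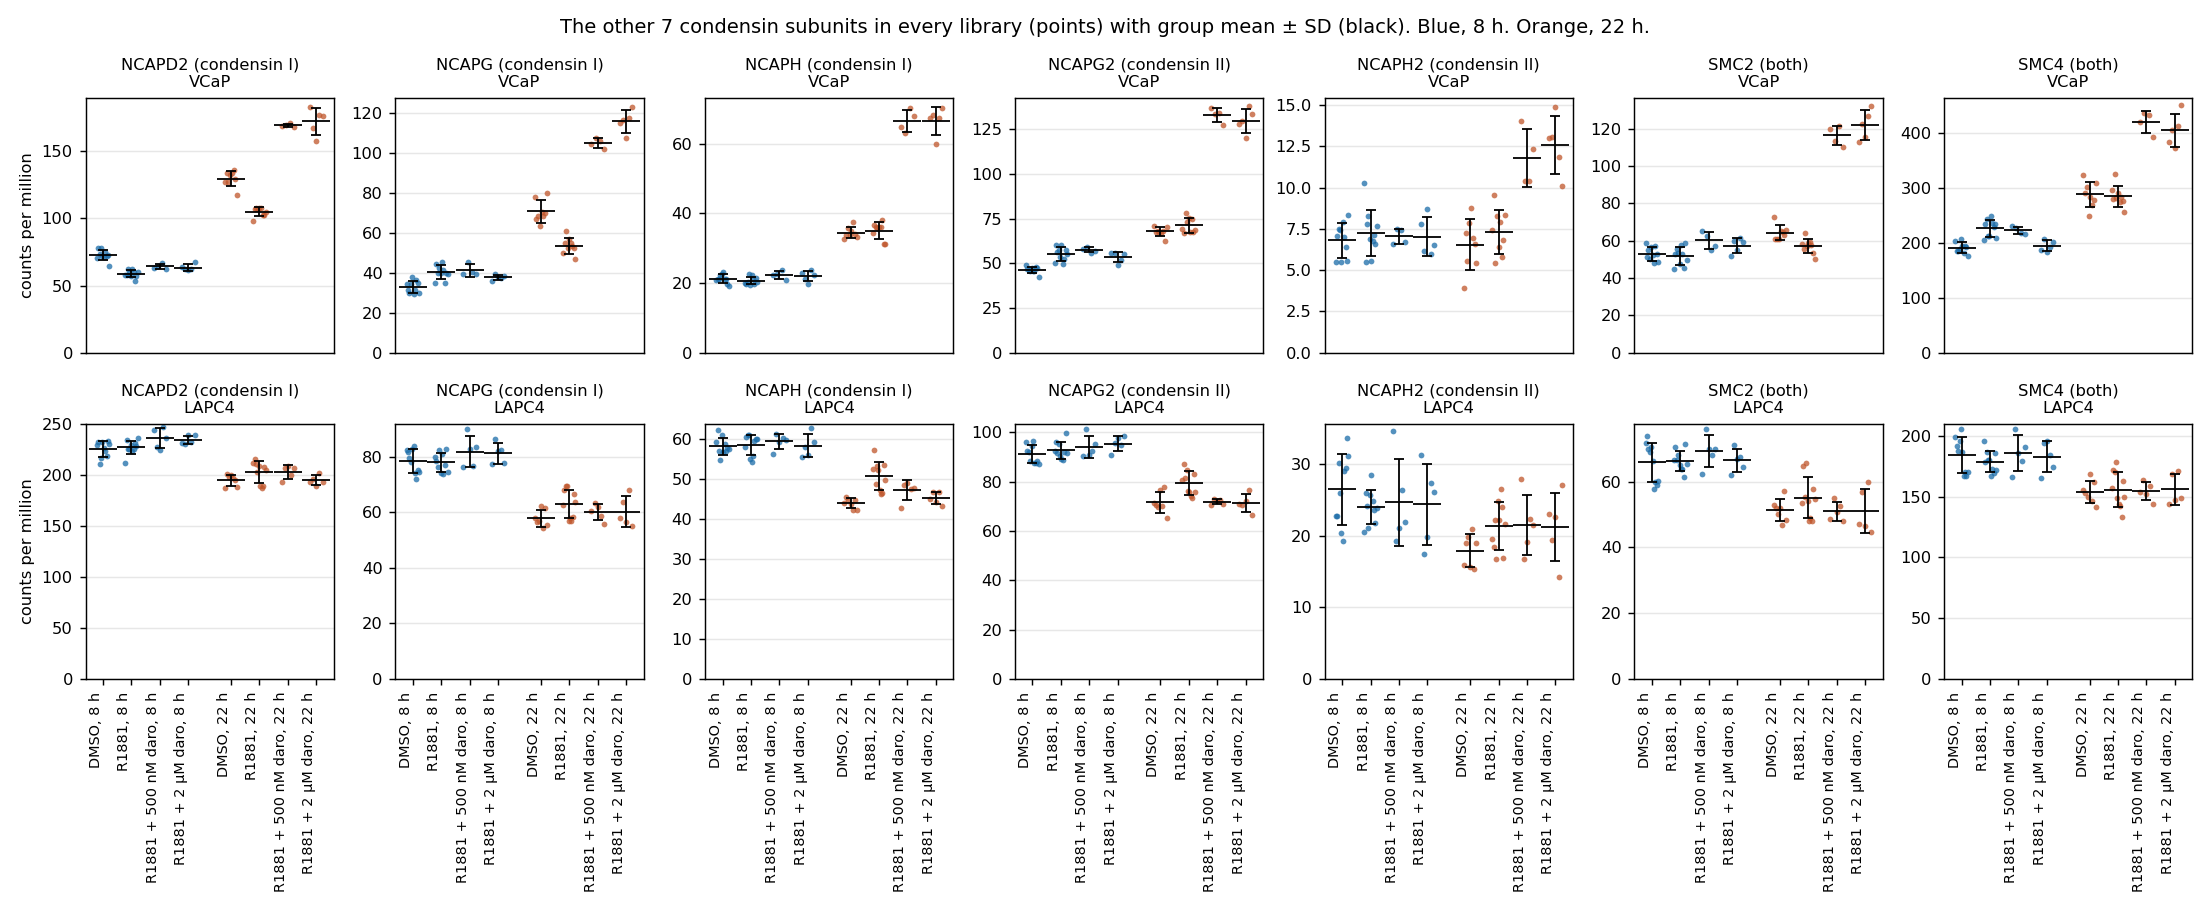
CPM of the other 7 subunits in each library (points; blue 8 h, orange 22 h) with the group mean ± SD in black, VCaP in the upper and LAPC4 in the lower row. In VCaP cells the means of the low- and high-dose groups at 22 h lie above all other group means for each subunit, and in LAPC4 cells the group means at 22 h lie below those at 8 h.

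Few of the other subunits were called between the doses in VCaP cells. Between 2 µM and 500 nM, SMC4 was the only other subunit called at 8 h (-0.19 ± 0.0598, adjusted p = 0.0157), where 10.0% of all genes were lower. This call was lost without high-dose replicate 3 or low-dose replicate 1. At 22 h, where 20.2% of all genes were called in either direction, 0 of 7 were called by edgeR and 0 by DESeq2, and 1, NCAPG (0.14 ± 0.0673, 95% interval 0.0059 to 0.28), had an unadjusted p under 0.05. NCAPG was called when only the compared groups were fitted (0.13, adjusted p = 0.0214) and with GC content as a covariate (0.13, adjusted p = 0.00601). The intervals of the other subunits at 22 h reached from -0.22 to 0.40 on the log2 scale, both bounds from NCAPH2. The 22 h difference of -1.81 for NCAPD3 lies outside all of these intervals.

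These genes also differed between the time points in vehicle-treated VCaP cells, where time and harvest cannot be told apart. From 8 to 22 h with DMSO, 6 of 7 other subunits rose, where 15.9% of all genes rose, led by NCAPG (1.10 ± 0.0496, adjusted p = 3.96e-26), NCAPD2 (0.83 ± 0.0309) and NCAPH (0.69 ± 0.0411). NCAPG lay between 29.3 and 37.7 CPM at 8 h and between 63.2 and 79.8 CPM at 22 h. NCAPH2 did not pass the test (-0.070 ± 0.119). The log2 fold changes of the 6 called subunits began at 0.28 for SMC2, beside 0.125 for NCAPD3 over the same time.

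**Figure D3:**
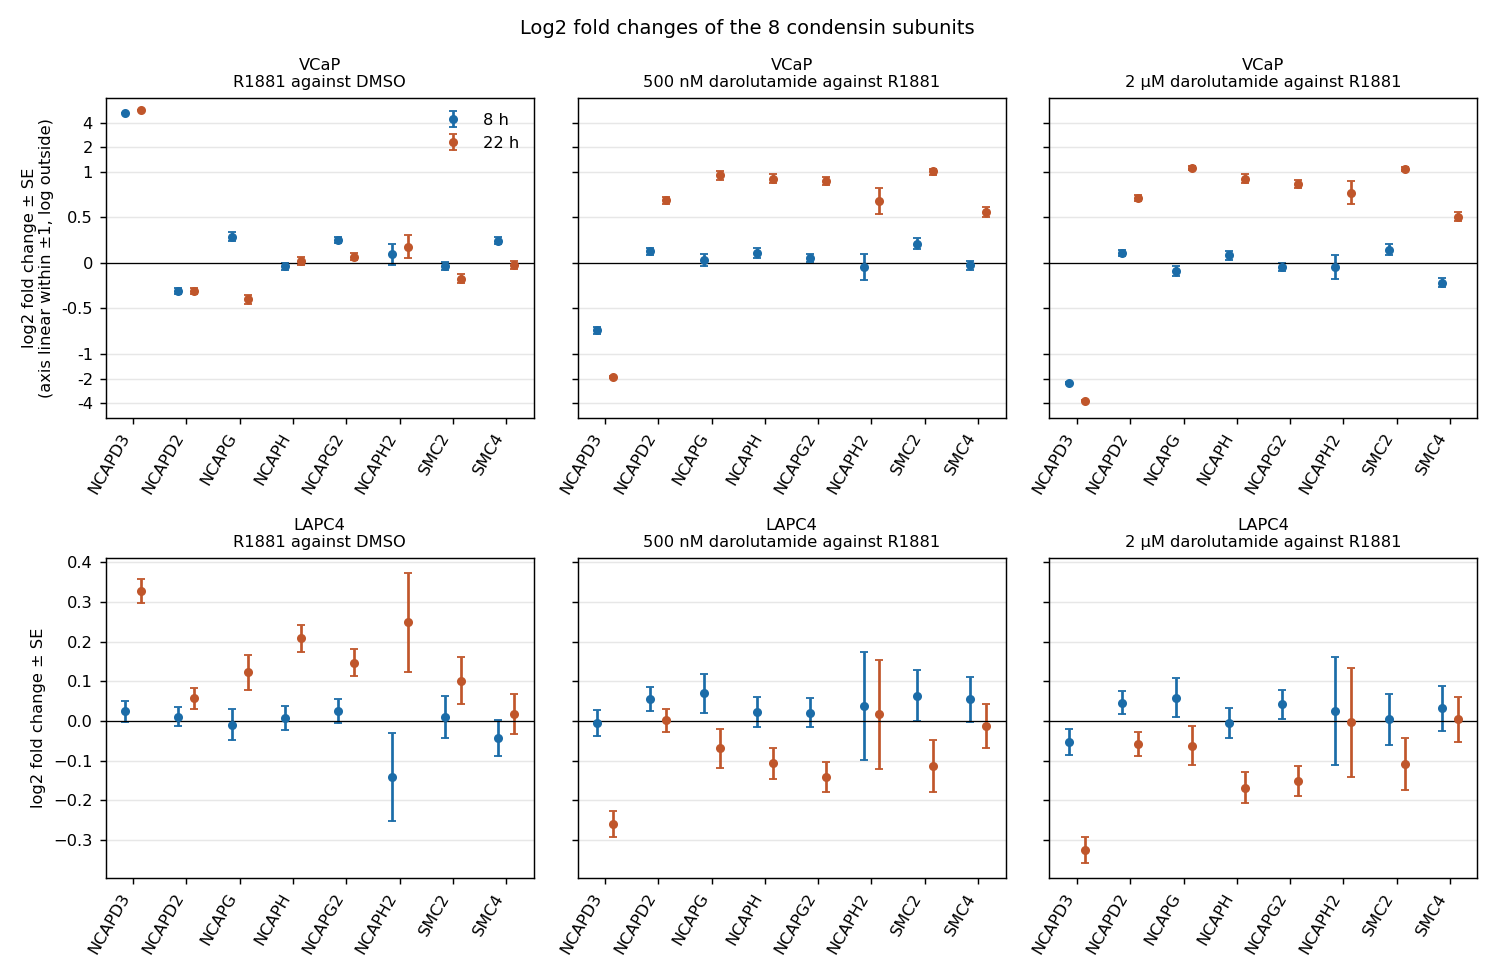
Log2 fold changes ± SE of the 8 subunits (blue 8 h, orange 22 h) with R1881 against DMSO and with each dose of darolutamide against R1881, in VCaP (upper row, axis linear within ±1 and logarithmic outside) and LAPC4 cells (lower row, linear axis). In VCaP cells at 22 h NCAPD3 falls with darolutamide while the other 7 rise.

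In LAPC4 cells at 8 h none of the 8 subunits was called in any of the 5 treatment comparisons, by edgeR or DESeq2, and 0 had an unadjusted p under 0.05. Beside these, the share of all genes called was 2.64% for R1881 against DMSO, 1.54% for the high and 0.626% for the low dose against R1881, 0.0275% between the doses and 0.0110% for the high dose with R1881 against DMSO. NCAPD2, for example, was at 225.7 ± 7.92 CPM with DMSO and 227.4 ± 6.68 CPM with R1881.

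At 22 h in LAPC4 cells NCAPG2 and the condensin I kleisin NCAPH were called in the direction of NCAPD3. With R1881 the log2 fold changes of the other 7 subunits lay between 0.018 (SMC4) and 0.25 (NCAPH2, not called). Of these 7, 4 had an unadjusted p under 0.05. With the high dose against R1881 the values of the 7 lay between -0.17 (NCAPH) and 0.0039 (SMC4). With R1881, NCAPH rose by 0.21 ± 0.0349 on the log2 scale (adjusted p = 6.35e-06) and NCAPG2 by 0.15 ± 0.0335 (adjusted p = 0.000898), so that 3 of 8 members rose, where 6.83% of all genes did. With the high dose against R1881 NCAPD3, NCAPH and NCAPG2 fell, where 5.47% of all genes fell, with -0.17 ± 0.0389 for NCAPH (adjusted p = 0.00149) and -0.15 ± 0.0374 for NCAPG2 (adjusted p = 0.00338). With the low dose NCAPD3 and NCAPG2 fell (-0.14 ± 0.0375 for NCAPG2, adjusted p = 0.0105), where 3.21% of all genes fell. NCAPH lay between 42.2 and 45.4 CPM with DMSO and between 46.3 and 57.2 CPM with R1881, without overlap. NCAPG2, at 65.3 to 77.7 and 73.3 to 87.3 CPM, overlapped. The number of other subunits called with R1881 was 2 with all controls, 5 when only control replicates 1 to 5 were fitted and 0 when only those from 6 upward were, and NCAPD3 stayed called throughout, with log2 fold changes from 0.29 to 0.37.

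No member differed at 22 h in LAPC4 cells between the doses, where 0.258% of all genes did, or between the high dose with R1881 and DMSO, where 0.0165% did. Both counts of 0 were the same with DESeq2, and 0 had an unadjusted p under 0.05. From 8 to 22 h with DMSO all 8 members fell, where 11.4% of all genes fell, from -0.21 ± 0.0265 for NCAPD2 to -0.56 ± 0.124 for NCAPH2. The call of NCAPH2 was lost with control replicates 1 to 5 alone (-0.42, adjusted p = 0.0762) and with those from 6 upward alone (-0.73, adjusted p = 0.0577), and the latter also ended those of SMC2 (adjusted p = 0.184) and SMC4 (adjusted p = 0.13). NCAPG lay between 72.0 and 84.0 CPM at 8 h and between 54.2 and 62.2 CPM at 22 h. The R1881 effect of NCAPH at 22 h exceeded that at 8 h by 0.20 ± 0.0468 (adjusted p = 0.00497), so that NCAPD3 and NCAPH were called in this test, which 3.21% of all genes passed. The call of NCAPH was lost with upper-quartile scaling (0.17, adjusted p = 0.0608) and with control replicates from 6 upward (0.16, adjusted p = 0.384), and with the GC covariate 6 of the other 7 subunits were called.

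The R1881 effect of the other subunits was compared between the cell lines directly. At 8 h the VCaP effect minus the LAPC4 effect was -0.40 ± 0.0404 for NCAPD2, 0.21 ± 0.0686 for NCAPG, 0.20 ± 0.0677 for SMC4, 0.14 ± 0.0505 for NCAPG2 and -0.13 ± 0.0547 for NCAPH, 5 of 7 calls beside 58.5% of all genes. At 22 h it was -0.58 ± 0.0743 for NCAPG, -0.42 ± 0.0437 for NCAPD2, -0.33 ± 0.0848 for SMC2, -0.24 ± 0.0588 for NCAPH and -0.14 ± 0.055 for NCAPG2, again 5 of 7, beside 68.5%. Shares of 5 in 7 are near this background. Some of these calls were not stable. That of NCAPH at 8 h was lost with DESeq2 (-0.099, adjusted p = 0.134), without the filter on low counts (-0.0053, adjusted p = 1.0), with only the compared groups (-0.046, adjusted p = 0.474), with the replicate block (-0.047, adjusted p = 0.521) and with control replicates from 6 upward (-0.092, adjusted p = 0.379). That of NCAPG2 at 22 h was lost without the filter (-0.017, adjusted p = 0.97), with only the compared groups (-0.11, adjusted p = 0.0754), with the replicate block (-0.12, adjusted p = 0.0721) and with control replicates from 6 upward (-0.10, adjusted p = 0.375). Control replicates from 6 upward left 1 subunit called at 8 h and 3 at 22 h. They ended the 8 h calls of NCAPG (adjusted p = 0.0859), NCAPG2 (0.146) and SMC4 (0.0577) and the 22 h call of SMC2 (0.121). At 8 h SMC4 was also lost with control replicates 1 to 5 (adjusted p = 0.0561) and NCAPG2 with upper-quartile scaling (adjusted p = 0.0577). At 22 h NCAPH was lost without the filter (-0.12, adjusted p = 0.0942).

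The proportion of NCAPD3 to the other condensin II subunits was spread widely over the VCaP groups and little over the LAPC4 groups. Per kilobase of the GENCODE canonical transcript, NCAPD3 reads over the mean of NCAPG2 and NCAPH2 came to 1.92 ± 0.0591 (SD, n = 10) with DMSO and 62.0 ± 2.81 (n = 10) with R1881 at 8 h, and to 1.51 ± 0.0703 (n = 8) and 74.1 ± 3.46 (n = 9) at 22 h. With the low dose the ratio was 36.0 ± 1.39 at 8 h and 10.7 ± 1.38 at 22 h, and with the high dose 13.3 ± 0.955 and 3.09 ± 0.152. The last value lies above every DMSO library, whose highest was 1.63 at 22 h. In LAPC4 cells the group means of the ratio lay between 0.576 and 0.697.

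**Figure D4:**
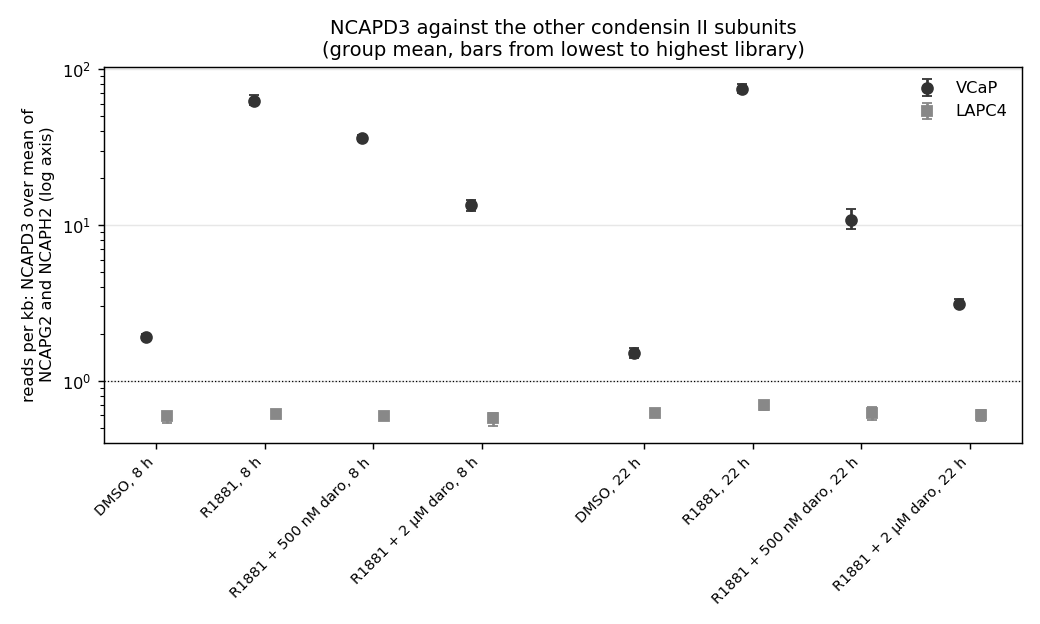
Reads per kilobase of NCAPD3 over the mean of NCAPG2 and NCAPH2 (log axis) by group, with bars from the lowest to the highest library, VCaP as dark circles and LAPC4 as grey squares. The VCaP ratio moves from 1.51 with DMSO at 22 h to 74.1 with R1881, and the LAPC4 ratio stays below 1.

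On this scale per kilobase, SMC4 was the most abundant member in vehicle-treated VCaP cells (37.4 CPM per kb at 8 h) and NCAPD2 in LAPC4 cells (46.8), and NCAPH2 was the least abundant in every group. NCAPD3 ranked 3 of 8 in VCaP cells with DMSO at 8 h, 5 at 22 h (14.2 CPM per kb) and 1 with R1881 (490.5 at 8 h and 732.2 at 22 h). In LAPC4 cells it ranked 7 of 8 in all groups but R1881 at 22 h, where it ranked 6. These ranks and the ratio depend on the length used. The canonical transcript of NCAPD3 has 7369 bases, but all its annotated exons together cover 18698 bases. For NCAPD2 these lengths are 4825 and 6470 bases. Values with the longer lengths were not computed.

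Over the 8 group means of log2 CPM in VCaP cells, the profile of NCAPD3 was most like those of MAPK6PS4 (Pearson r = 0.999) and MAPK6 (r = 0.998), an atypical MAP kinase whose pseudogene MAPK6PS4 can share its reads, of RGMB (r = 0.997), a BMP co-receptor, of RP11-419L20.2 (r = 0.997) and of the Wnt receptor FZD5 (r = 0.994), out of 2928 candidates. The other subunits had r between -0.22 and 0.093. In LAPC4 cells, among 1980 candidates, the genes most alike included TCOF1 (r = 0.997), MTHFD1, XRCC2 and MCM4, a subunit of the replicative helicase, and the other subunits had r from 0.77 to 0.92. These values describe likeness over 8 points that share libraries, and no test was made.

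The genes beside NCAPD3 also responded in VCaP cells. Of 9 genes in the count table within 250 kb, 7 were higher with R1881 at 22 h, where 37.4% of all genes were, and 2 were lower. The 6 genes on the side of the NCAPD3 start all rose at 8 and at 22 h. They were VPS26B, a retromer subunit (2.21 at 22 h), THYN1 (1.71), ACAD8, a mitochondrial acyl-CoA dehydrogenase (2.79), the galactosidase-like genes GLB1L3 (3.58) and GLB1L2 (1.94) and the glucuronyltransferase B3GAT1 (1.18), all log2 fold changes with adjusted p of 2.26e-26 or less. With the high dose against R1881 at 22 h all 6 fell, from -0.83 for GLB1L2 to -2.75 for GLB1L3, where 30.8% of all genes fell. On the other side, the junction protein gene JAM3 fell with R1881 (-3.08, adjusted p = 1.04e-41) and rose with the high dose (2.26). There IGSF9B also fell with R1881 at 22 h (mean 7.97 to 4.70 CPM), where 40.0% of all genes fell. PTP4A2P2, on the same side, rose (mean 1.76 to 2.61 CPM).

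In LAPC4 cells 6 of the 9 genes were tested. With R1881 at 22 h GLB1L2 (0.46, adjusted p = 7.24e-14) and VPS26B (0.16, adjusted p = 0.000388) rose, where 6.83% of all genes rose. Both fell with the high dose against R1881 (-0.46 and -0.15), where 5.47% of all genes fell, and THYN1 was higher with it (0.14). The R1881 effect at 22 h was higher in VCaP than in LAPC4 cells for all 6 by the test of the difference, by 0.55 for PTP4A2P2 to 3.12 for GLB1L3, where 68.5% of all genes passed this test in either direction.

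**Figure D5:**
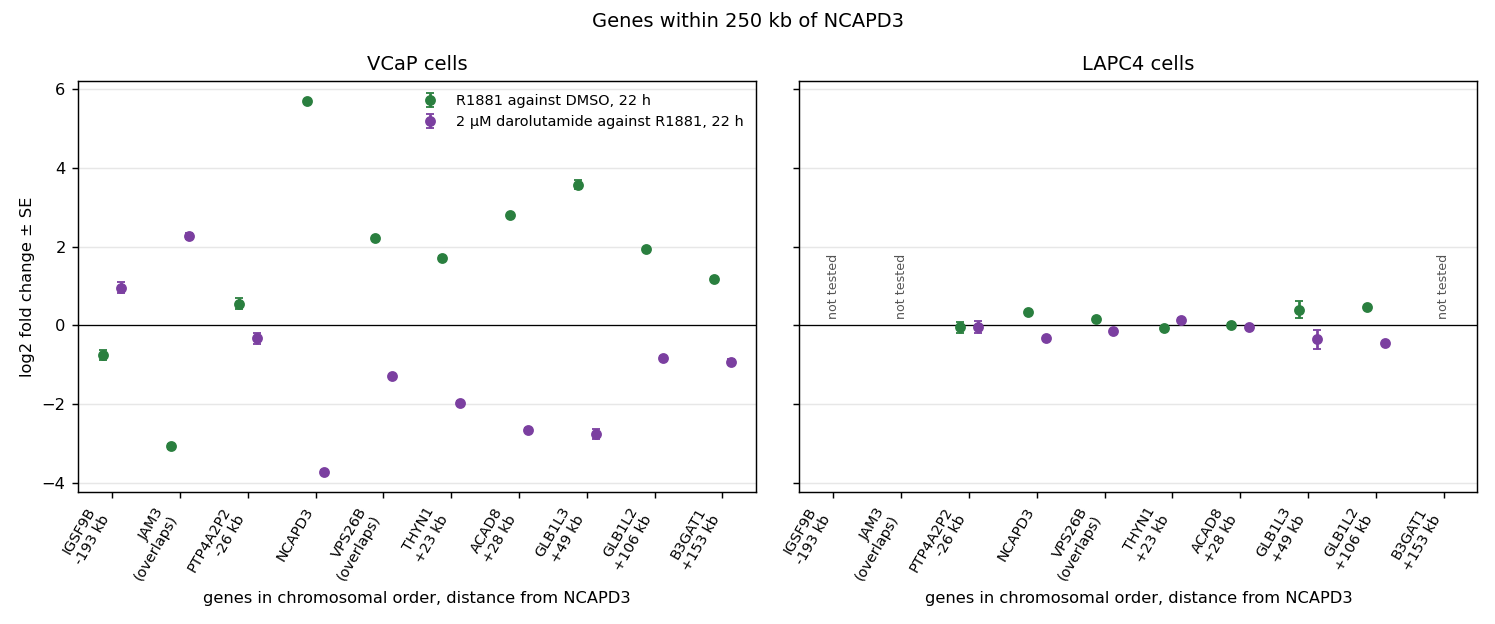
Log2 fold changes ± SE at 22 h of NCAPD3 and the 9 genes of the count table within 250 kb, in chromosomal order with the distance from NCAPD3, for R1881 against DMSO (green) and 2 µM darolutamide against R1881 (purple). In VCaP cells (left) the 6 genes beyond the NCAPD3 start rise with R1881 and fall with darolutamide, and JAM3 and IGSF9B go the other way.

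Exons of NCAPD3 overlap exons of JAM3 over 1889 bases and of VPS26B over 249 bases, both on the opposite strand, and the strand setting of the authors' counting is not given in the sources used here, so counts of these genes can hold reads of each other. JAM3 lay at 2.54 CPM with R1881 at 22 h in VCaP cells, where NCAPD3 was at 5395 CPM, and at 21.5 CPM with DMSO, where NCAPD3 was at 104.4. VPS26B moved in the direction of NCAPD3, from 86.3 to 398.4 CPM, and the part of shared reads in this was not tested. Likewise, opposite-strand exons overlap for NCAPD2 with MRPL51, for NCAPG with LCORL, for NCAPH2 with SCO2 and for SMC4 with TRIM59 and IFT80. In the high-dose comparison at 22 h in VCaP cells these partners had log2 fold changes of -0.073 (MRPL51), -0.19 (LCORL), 0.031 (SCO2), 0.57 (TRIM59) and 0.28 (IFT80).

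Related gene lists were counted in the same comparisons. In the high-dose comparison with R1881 at 22 h in VCaP cells, where 36.1% of all genes rose and 30.8% fell, 29 of 29 DNA replication genes and 25 of 25 mitosis genes rose, with median log2 fold changes of 1.15 and 0.88, against 0.058 for all genes tested. The median of the 7 subunits was 0.87. The list of 13 condensin regulators held 9 that rose, among them TOP2A (1.01), the DNA topoisomerase of mitotic chromosomes, CDK1 (1.06), which phosphorylates condensin, AURKB (1.09) and MKI67 (0.88), and 3 that fell, the phosphatase subunit genes PPP2CA (-0.27) and PPP2R1A (-0.18) and the condensin II antagonist MCPH1 (-0.13). This list shares genes with that of mitosis. Of 15 cohesin genes 9 rose and 2 fell, with 0.29 for SMC1A, 0.38 for SMC3 and 0.18 for RAD21, the ring subunits of the related complex that holds sister chromatids together. Of 7 SMC5/6 genes 4 rose and 2 fell.

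With R1881 at 22 h in VCaP cells, where 40.0% of all genes fell and 37.4% rose, 23 of 25 mitosis genes fell (median -0.48) while 19 of 29 DNA replication genes rose (median 0.24), against a median of -0.034 over all genes. The 7 subunits had a median of -0.018. From 8 to 22 h with DMSO, 25 of 25 mitosis genes rose (median 1.33) and 4 of 29 replication genes did (median -0.023), beside 15.9% of all genes. In LAPC4 cells with R1881 at 22 h, 23 of 29 replication genes rose (median 0.23) and so did 2 of 25 mitosis genes (median 0.051), beside 6.83% of all genes, and with the high dose 17 replication genes were lower, beside 5.47%. From 8 to 22 h with DMSO, 25 mitosis and 26 replication genes fell in LAPC4 cells, beside 11.4%. The part of the share of dividing cells in these values was not tested.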

How the data were processed

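RNA of VCaP and LAPC4 cells was sequenced as single-end reads of 50 bases from stranded mRNA libraries. Per the submitters' processing notes, the authors used STAR with build GRCh38 for alignment and featureCounts for the counts of each gene. Versions, gene models and the strand setting of the counting are not given in the sources used here. The deposited values are raw read counts per gene symbol, and samples were grouped by the submitted treatment labels (112 libraries in 16 groups, 4 to 10 per group, which does not match the replicate number that the study's methods state). No deposited per-sample column was left unused. The lowest chi-square per degree of freedom between libraries of a group was 1.66 in VCaP and 1.47 in LAPC4, above sampling noise, so no library was counted as a duplicate.

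The counts were fitted per cell line, all 8 groups together, with edgeR 4.0.16 (R 4.3.3, limma 3.58.1) by the quasi-likelihood test with TMM scaling, after a filter of 10 reads in at least 4 libraries. This left 19266 genes in VCaP and 18204 in LAPC4. Adjusted p-values are Benjamini-Hochberg values over all genes tested, and a call is an adjusted p under 0.05. The lines were compared in 1 fit over 16578 genes. Log2 CPM values use a prior count of 2, and fold changes use the default prior of the fit. Levels are CPM with TMM factors set within a cell line, unless common factors are named, and levels per kilobase use canonical transcripts of GENCODE 44. Neighbours were the genes of the count table within 250 kb of NCAPD3. The genes most alike were the 5 with the highest r among genes with a mean log2 CPM above 3 and a range of group means of at least 1 (VCaP) or 0.3 (LAPC4), of which 1 is not reported here. The fits were tested on simulated data. The alternatives were DESeq2 1.42.0, other filters and scaling, only the compared groups, a replicate block, subsets of the controls, a GC covariate and leaving out each darolutamide library. Members, gene lists, motifs and the GC alternative were chosen with earlier results of these data known. Intervals at 95% come from the fit.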

Additional observations from a re-analysis of the deposited data

Results flagged for a closer look

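In 7 of 128 combinations of subunit and group, 1 library stood farther from the others than Dixon's limit allows. Chance alone gives about 1 in 20, which is 6.4 here. NCAPD3 was at 465 CPM in replicate 4 of high-dose VCaP cells at 22 h, where the other 4 libraries lay between 385 and 407 CPM. In the same group NCAPH was at 59.8 CPM in replicate 3, against 67.3 to 70.2 in the others, and still above every R1881 and DMSO library of that time. NCAPD2 was at 67.5 CPM in replicate 5 of high-dose VCaP cells at 8 h (others 61.7 to 63.4), and its call against R1881 was lost without that library. NCAPD2 was also low, at 53.1 CPM, in replicate 8 of R1881 VCaP cells at 8 h (others 57.4 to 62.0). SMC2 was at 72.8 CPM in replicate 1 of DMSO VCaP cells at 22 h (others 61.0 to 65.7). NCAPG2 was at 42.5 CPM in replicate 10 of DMSO VCaP cells at 8 h (others 45.8 to 49.1). NCAPH was at 42.8 CPM in replicate 1 of low-dose LAPC4 cells at 22 h (others 47.6 to 49.0).

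The test of a difference between groups passed for the R1881 effect of 3 subunits between the times in VCaP cells, with log2 differences (22 h minus 8 h) of -0.69 for NCAPG, -0.26 for SMC4 and -0.18 for NCAPG2, and of 2 in LAPC4 cells, with 0.30 for NCAPD3 and 0.20 for NCAPH, which was lost with upper-quartile scaling and with control replicates from 6 upward. The VCaP call of SMC4 between the times was lost with control replicates 1 to 5 alone. Between the lines (VCaP minus LAPC4) the test passed at 8 h for NCAPD2 (-0.40), NCAPG (0.21), SMC4 (0.20), NCAPG2 (0.14) and NCAPH (-0.13). That of NCAPH was lost with DESeq2, without the filter on low counts, with only the compared groups, with the replicate block and with control replicates from 6 upward. Control replicates from 6 upward also ended those of NCAPG, SMC4 and NCAPG2. That of SMC4 was also lost with control replicates 1 to 5, and that of NCAPG2 with upper-quartile scaling. At 22 h the test passed for NCAPG (-0.58), NCAPD2 (-0.42), SMC2 (-0.33), NCAPH (-0.24) and NCAPG2 (-0.14). That of NCAPG2 was lost under the alternatives named for NCAPH at 8 h, except DESeq2. That of SMC2 was lost with control replicates from 6 upward, and that of NCAPH without the filter on low counts. NCAPG differed between the lines in opposite directions at the 2 times, with its 8 h call lost with control replicates from 6 upward. Of all genes, 60.4% passed the test between the times in VCaP cells and 3.21% in LAPC4 cells. Between the lines 58.5% of all genes passed at 8 h and 68.5% at 22 h. The calls in VCaP cells and between the lines are near or below these shares.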

How the results depend on the processing

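Over all alternatives, 2227 of 2310 log2 fold changes of single members kept direction and side of the threshold, 43 fell short of it, 39 passed it newly and 1 reversed. The reversal was NCAPH with R1881 in VCaP cells at 22 h, at -0.092 (adjusted p = 0.0378) with upper-quartile scaling. With that scaling NCAPD3 in VCaP cells was at 5.15 and 5.58 with R1881 at 8 and 22 h, at -2.19 and -0.69 with the high and low dose against R1881 at 8 h and at 1.88 with the high dose against DMSO at 22 h. The count of other subunits called became 5 with R1881 in VCaP cells at 22 h and 0 for the time difference in LAPC4 cells. With control replicates 1 to 5 NCAPD3 was at 5.19 with R1881 at 8 h in VCaP cells. On the CPM scale the reversal with the low dose was 41.2% (8 h) and 74.9% (22 h), and with the high dose 81.4% (8 h) and 94.2% (22 h).

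The counts of other subunits called in LAPC4 cells moved most. At 22 h, control replicates 1 to 5 gave 5 (R1881), 4 (high dose) and 2 (low dose against R1881) and 2 for the time difference, where replicates 6 and above gave 0 in each, 4 for DMSO over time, and 1 and 3 for the line difference at 8 and 22 h. These subsets hold fewer samples. The GC covariate gave 5 with R1881, 2 with the low dose and 6 for the time difference in LAPC4 cells and 1 between the doses in VCaP cells at 22 h, as did a fit of only the compared groups. Without the filter on low counts 1 was called with the low dose and 0 between the doses in VCaP cells at 8 h, 0 with the low dose in LAPC4 cells at 22 h and 3 for the line difference at 22 h. Leaving out darolutamide libraries at 8 h in VCaP cells gave 1 to 4 calls with the high dose, 1 to 2 with the low dose and 0 to 1 between the doses.

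With the replicate block, the counts became 0 for the low dose in VCaP cells at 8 h and 4 and 2 for the high and low dose in LAPC4 cells at 22 h. On average, same-numbered libraries did not deviate together (mean r -0.0051 over 149 pairs in VCaP and 0.055 over 161 in LAPC4), so the numbers were not taken to pair the samples. Single pairs ranged from r = -0.50 to 0.46 in VCaP and from -0.57 to 0.60 in LAPC4. The cause of the moved counts was not tested. NCAPH2 had the fewest reads of the 8 subunits and the largest errors.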
